A study of Mus musculus with 3 samples.

Results

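Cytosolic ribosomal protein genes encode the proteins of the ribosome that works in the cytoplasm, and the peaks assigned to them were examined in 2 ChIP-seq libraries of mouse beige adipocytes. Members were the rows of both deposited peak lists whose gene name is an Rpl or Rps name with a number, or Rpsa, Rplp0, Rplp1 or Rplp2. The kinases with names starting with Rps6k, Rps19bp1 and names with "-ps" were left out. The rule took 109 peaks, 43 of 16937 Foxp4 peaks and 66 of 17564 H3K27ac peaks. These peaks carried 63 gene names. All but 1 of the names, the transcribed pseudogene Rps4l, are among the 88 protein-coding genes of the RefSeq annotation that match the rule, 54 of the large subunit and 34 of the small subunit. In the Foxp4 list 27 names occurred and in the H3K27ac list 54, with 18 in both. The remaining 26 protein-coding genes had no assigned peak in either list.

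The cells were C57BL/6 stromal-vascular cells of inguinal white fat, differentiated in culture to beige adipocytes with insulin, isobutylmethylxanthine, dexamethasone, T3 and troglitazone and then kept with insulin, T3 and troglitazone. All libraries share this treatment, and there was no undifferentiated or untreated group. One library was made with an antibody to the forkhead transcription factor Foxp4, one labelled H3K27ac, an acetylated form of histone H3 found at active promoters and enhancers, and one from input DNA, which was not used here. The labels' protocol names an antibody for Foxp4 only. With 1 library of each kind and no replicate, no test between conditions is possible, so groups of genes are described by counts beside the same count over all genes, with 95% intervals by the exact Clopper-Pearson method, which reflect only counting error. Sequencing depth is unknown from peak lists, and a gene without a peak is a gene where none was called. As a check of the label, 5 of 6 adipocyte marker genes had an assigned H3K27ac peak (Adipoq had none), against 0 of 4 thermogenic markers (Ucp1, Prdm16, Dio2 and Cidea) and 5 of 7 markers of other cells that such a culture could hold (Pecam1, Cdh5, Acta2, Myh11 and Pdgfra, but not Ptprc or Adgre1). Peaks at any distance were counted here, and 37.5% of all protein-coding genes had one. Fabp4, Pecam1, Cdh5 and Myh11 had none within 1000 bp of the start.

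Ribosomal proteins are made in near-equal amounts from single, highly transcribed genes. Their promoters are rich in GC, usually lack a canonical TATA box, and start transcription inside a stretch of C and T that becomes the 5' terminal oligopyrimidine (TOP) tract of the mRNA, through which mTOR signalling controls its translation. Many of these genes carry small nucleolar RNAs (snoRNAs), which guide the modification of ribosomal RNA, inside their introns.

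The sequence at the transcription start is shown because TOP tracts begin there. RefSeq promoter sequences (GRCm38.p6, the assembly of mm10) matched 68 of the 88 genes, some with more than 1 start. Such a gene was counted by its start with the highest C and T share and, for motifs, as holding one if any of its starts did. In the 15 bases from 5 before to 9 after the start base, the median share of C or T was 66.7%, against 53.3% over 16853 protein-coding genes with a sequence. A share of at least 80% was reached by 19 of the 68 genes (27.9%), against 6.99% of all genes. The GC share of the 250 bases before the start, averaged over a gene's starts, had a median of 56.4%, against 56.0% over all genes. The 6 stretches below run from 15 bases before the start to 14 after it, and capitals mark the longest run of C and T near the start. The first 3 genes had an H3K27ac peak over the start or, at Rpl27a, beginning 35 bp after it. The next 2 had none in the gene or within 1000 bp of it, and the last had one on each side of the start but has no such run.
Rpl27a, chr7:109519180-109519209, plus strand: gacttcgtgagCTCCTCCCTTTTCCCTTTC
Rpl35, chr2:39005117-39005146, minus strand: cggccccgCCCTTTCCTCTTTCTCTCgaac
Rpl28, chr7:4792950-4792979, plus strand: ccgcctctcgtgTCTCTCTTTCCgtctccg
Rpl7a, chr2:26910792-26910821, plus strand: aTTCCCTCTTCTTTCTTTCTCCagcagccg
Rps6, chr4:86857353-86857382, minus strand: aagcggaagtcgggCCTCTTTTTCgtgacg
Rps3a1, chr3:86142654-86142683, minus strand: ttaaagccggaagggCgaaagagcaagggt
Runs of 19, 18 and 11 bases stood at the first 3 starts, and runs of 21 and 10 bases at Rpl7a and Rps6. In Rps3a1 the share of C or T in the 15 bases was 13.3%. Such tracts thus occurred at genes with and without a called H3K27ac peak. The median share was 66.7% in both the 45 genes with an H3K27ac peak in the gene or within 1000 bp of it and the 23 without. A share of at least 80% was reached by 15 of the 45 (33.3%) and by 4 of the 23 (17.4%), a difference that was not tested.

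Other short motifs were counted on both strands of the 300 bases from 250 before to 50 after the start. CCGGAAG, the core bound by ETS factors such as GABPA, was present at 26 of 68 genes (38.2%), against 13.3% of all protein-coding genes. AAGATGGC, a core of YY1 sites, occurred at 6 (8.82%, against 3.64%), the GC box GGGCGG at 40 (58.8%, against 50.7%) and TATAAA at 8 (11.8%, against 14.7%). The forkhead core TGTTTAC was found at 1 gene, Rpl41 (1.47%, against 3.40%), and its variant TGTTTAT at 2, Rpl24 and Rplp0 (2.94%, against 4.60%). Neither Rpl41, Rpl24 nor Rplp0 had a Foxp4 peak. Of the 45 genes with H3K27ac 21 held CCGGAAG (46.7%) and 2 TATAAA (4.44%), against 5 (21.7%) and 6 (26.1%) of the 23 without. A match is only a match of letters, and these shares were not tested.

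To see how many of the genes carried the mark of active promoters, a promoter peak was defined as one whose centre lies within 1000 bp of the transcription start in the deposited distance column. H3K27ac promoter peaks were assigned to 50 of the 88 genes (56.8%, interval 45.8 to 67.3%), against 26.0% of all 21031 protein-coding genes. The large subunit had 29 of 54 (53.7%, interval 39.6 to 67.4%) and the small subunit 21 of 34 (61.8%, interval 43.6 to 77.8%), so the intervals of both subunits overlapped widely. In the standard set of ribosomal proteins 47 of 77 genes had one (61.0%), and among the 11 paralogs and retrogenes within the rule 3 had one (27.3%, interval 6.02 to 61.0%). Of these 3, the peak named Rps27rt lay inside Rps27 of the standard set and not at the retrogene. Of the 4 genes on the X chromosome, only Rpl10 had a promoter peak, and Rpl36a, Rpl39 and Rps4x had none.

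Of the 66 H3K27ac peaks 55 were promoter peaks, against 36.5% of the whole list, and 1 of the 55 belonged to the pseudogene Rps4l. Each peak carries the authors' score, which ranks peaks within its own list. The 55 promoter peaks had a median score of 58 (range 25 to 120, quartiles 45 and 69), against a median of 51 (quartiles 38 and 71) over all 6415 H3K27ac promoter peaks. Their median width was 746 bp, against 660 bp.

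**Figure D1:**
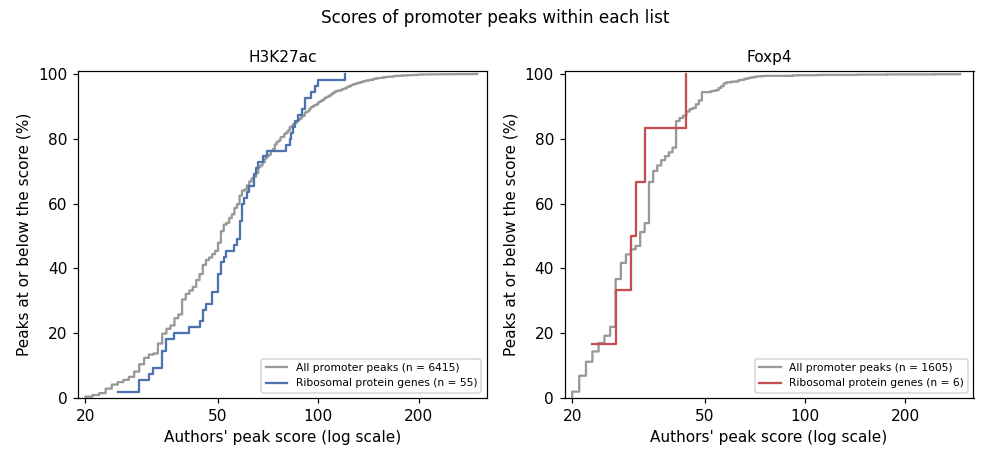
Cumulative share of promoter peaks (%) against the authors' peak score (log axis) in the H3K27ac list (left) and the Foxp4 list (right); coloured lines are peaks of ribosomal protein genes (55 and 6) and grey lines all promoter peaks (6415 and 1605). The 55 H3K27ac peaks run from 25 to 120 with a median of 58, and the 6 Foxp4 peaks from 23 to 44.

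Among small subunit genes, high H3K27ac promoter scores were found at Rps14 and Rps23 with 91, Rps26 at 85 and Rps3a1 at 84. Rps23 forms part of the decoding centre, and Rps14 is the gene whose human counterpart is lost in the 5q- syndrome. Rps3a1 had a second peak of nearly the same score, 83, on the other side of its start, the 2 centres lying 442 bp downstream and 758 bp upstream. Among promoter peaks assigned to large subunit genes the highest were Rpl19 at 100, Rpl7 at 98, Rpl14 at 95, Rpl21 at 89 and Rpl30 at 87. The Rpl19 score exceeded that of 90.7% of H3K27ac promoter peaks. At the other end stood Rpl31 at 25, Rps19, mutated in Diamond-Blackfan anaemia, at 31, Rps29 at 32, and Rps12, Rps21 and Rpl38 at 34.

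The widest H3K27ac peaks assigned to the group lay at Rpl9 (1610 bp), Rpl30 (1375 bp), Rpl13 (1306 bp), Rpl19 (1274 bp) and Rpl7 (1257 bp). The Rpl9 peak (chr5:65390615-65392224) was centred 12 bp from the Rpl9 start. Lias, a divergent gene for lipoic acid synthesis, starts within 1000 bp upstream of that start. The Rpl9 peak scored 64.

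Acidic stalk proteins recruit translation factors to the ribosome. Of their genes, Rplp1 (score 56) and Rplp2 (score 50) had a promoter peak, with centres 254 and 305 bp downstream of the start. Rplp0, which anchors the stalk and is often used as a reference gene, had none, and its only assigned H3K27ac peak (score 45) lay 23979 bp upstream in an intron of another gene. Rpl5 and Rpl11 bind 5S ribosomal RNA and, when free, the p53 regulator Mdm2. Rpl11 had an H3K27ac promoter peak of score 68 (chr4:136052844-136053327) and Rpl5 had no peak of either list in the gene or within 1000 bp of it. Rpsa, also known as the laminin receptor gene, had a peak of score 58 and Rps6, whose protein is the classic target of S6 kinase, had no H3K27ac peak.

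Paralogs differed from one another. Rps27l, a p53-responsive paralog of Rps27, had an H3K27ac promoter peak of score 51 (chr9:66945683-66946376), and Rpl36al one of score 35 (chr12:69183394-69184596). The muscle paralog Rpl3l, the testis paralogs Rpl10l and Rpl39l, and Rpl22l1, Rpl7l1, Rpl32l, Rpl37rt and Rps23rg1 had no H3K27ac promoter peak. The peak named Rps27rt in the deposited list, of score 65, lay on chromosome 3 (chr3:90212742-90213569) inside Rps27, while RefSeq places the retrogene Rps27rt on chromosome 9, where neither list had a peak. The peak was counted under its deposited name, so that Rps27 itself counted as a gene without one. In the same way an H3K27ac peak of score 53 inside Rpl34 carried the name Rpl34-ps1 (chr3:130729922-130730308) and fell outside the rule.

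The acetylated regions lay mostly downstream of the start. Of the 55 H3K27ac promoter peaks 41 (74.5%) had their centre downstream, against 71.1% of all H3K27ac promoter peaks, and 30 (54.5%) had it between 200 and 700 bp downstream, against 48.1%. The median centre stood at 298 bp downstream, against 255 bp. The start itself was covered by 22 of the 55 peaks, against 41.3% of all, whereas 24 lay wholly downstream (43.6%, against 44.1%) and 9 wholly upstream (16.4%, against 14.6%). In the deposited annotation 18 of the 55 lay in introns, against 35.9% of all. Position relative to the start was near that of other promoter peaks. Flanking pairs of peaks assigned to the gene, one on each side of an uncovered start, occurred at 4 genes: Rps3a1, Rpl10, Rpl10a and Rpl13a. With peaks of other names counted, Rpl3, Rpl15 and Rps21 also had one on each side. At Rpl10 the upstream peak scored 51 and the downstream one 29, and at Rpl10a the upstream peak scored 29 and the downstream one 48.

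**Figure D2:**
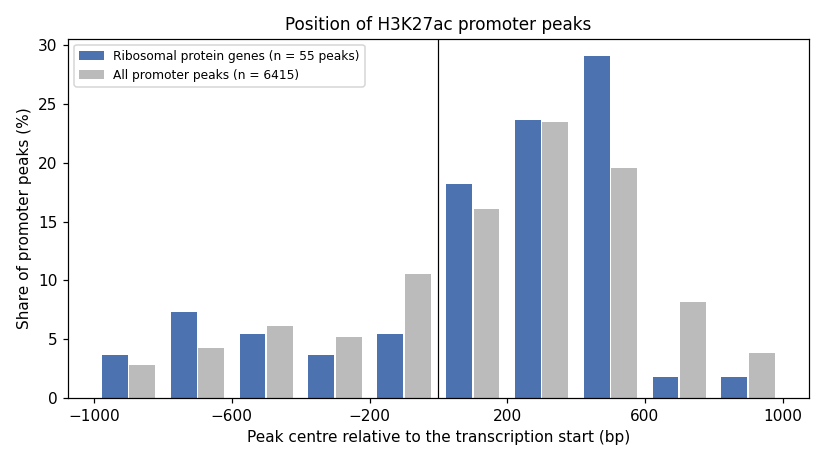
Share of H3K27ac promoter peaks (%) by the position of the peak centre relative to the transcription start, in bins of 200 bp; blue bars are the 55 peaks of ribosomal protein genes and grey bars all 6415 promoter peaks. The fullest bin for ribosomal protein genes is 400 to 600 bp downstream (16 peaks, 29.1%, against 19.6% of all).

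The deposited lists give each peak to the 1 nearest annotated start, and snoRNAs have starts of their own, so peaks were also looked for by position. According to RefSeq 30 of the 88 genes hold at least 1 snoRNA, 60 in all. Any H3K27ac peak in the gene or within 1000 bp of either end, whatever its assigned name, was present at 65 of 88 genes (73.9%, interval 63.4 to 82.7%), against 38.0% of all protein-coding genes. This rule was chosen after seeing the data. A longer gene gives this rule more room, and the median length was 3.18 kb for ribosomal protein genes against 17.7 kb for all. Of the 16 genes that had such a peak but no assigned promoter peak, 7 had one named after a snoRNA inside them, among them Rpl17, Rpl23, Rpl23a, Rpl27a, Rps2 and Rps16. With snoRNA hosts apart, the share was 25 of 30 (83.3%, interval 65.3 to 94.4%) by position and 16 of 30 (53.3%) by assigned promoter peak. In the 58 genes without a snoRNA it was 40 (69.0%, interval 55.5 to 80.5%) and 34 (58.6%).

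Some of the strongest acetylated regions of the group were among these. The highest H3K27ac score at any ribosomal protein gene was 146, at Rpl17, where a peak of 800 bp lay wholly inside the gene and bore the name Snord58b. It exceeded 99.2% of the H3K27ac list. Rpl27a, whose start sequence is printed above, held a peak of score 120 named Snora3, from 35 to 949 bp downstream of the start (chr7:109519230-109520144). Rpl23a held one of score 118 named Snord42b (chr11:78182502-78183504). The Rpl23 peak of score 54, named Snora21, covered the start. Lower scores were found at Rps16 (25, named AF357399) and Rps2 (22, named Snora78). At Rpl3 both kinds occurred, an assigned peak of score 59 upstream of the start and one of score 56, named Snord43, from 137 to 718 bp downstream.

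Peaks at or near other starts carried the names of neighbouring genes. Rps18 and Vps52, a subunit of vesicle tethering complexes, are divergent genes with 425 bp between their starts, and the H3K27ac peak over the Rps18 start (score 82, chr17:33955246-33956596) was named Vps52. The peak over the start of Rps27a, which makes ubiquitin as a fusion protein, scored 33 and was named Clhc1. The peak at Rpl26 (score 43, named Gm15772) began 6 bp before the start, and the one at Rpl4 (score 32, named Zwilch) ended 20 bp before it. A second peak at Rps21, of score 41, began 6 bp after the start and was named Mir3091. At Rpl18 the peaks nearby were named Sphk2 (scores 35 and 30), and at Rpl7l1 the peak (score 72) lay beyond the 3' end and was named 2310039H08Rik. Restricted to the 68 genes with a RefSeq promoter sequence, an H3K27ac peak overlapped the 1000 bp on either side of a start at 42 (61.8%, interval 49.2 to 73.3%), against 30.7% of 16853 genes. Of the same 68 genes 34 (50.0%) had an assigned promoter peak.

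**Figure D3:**
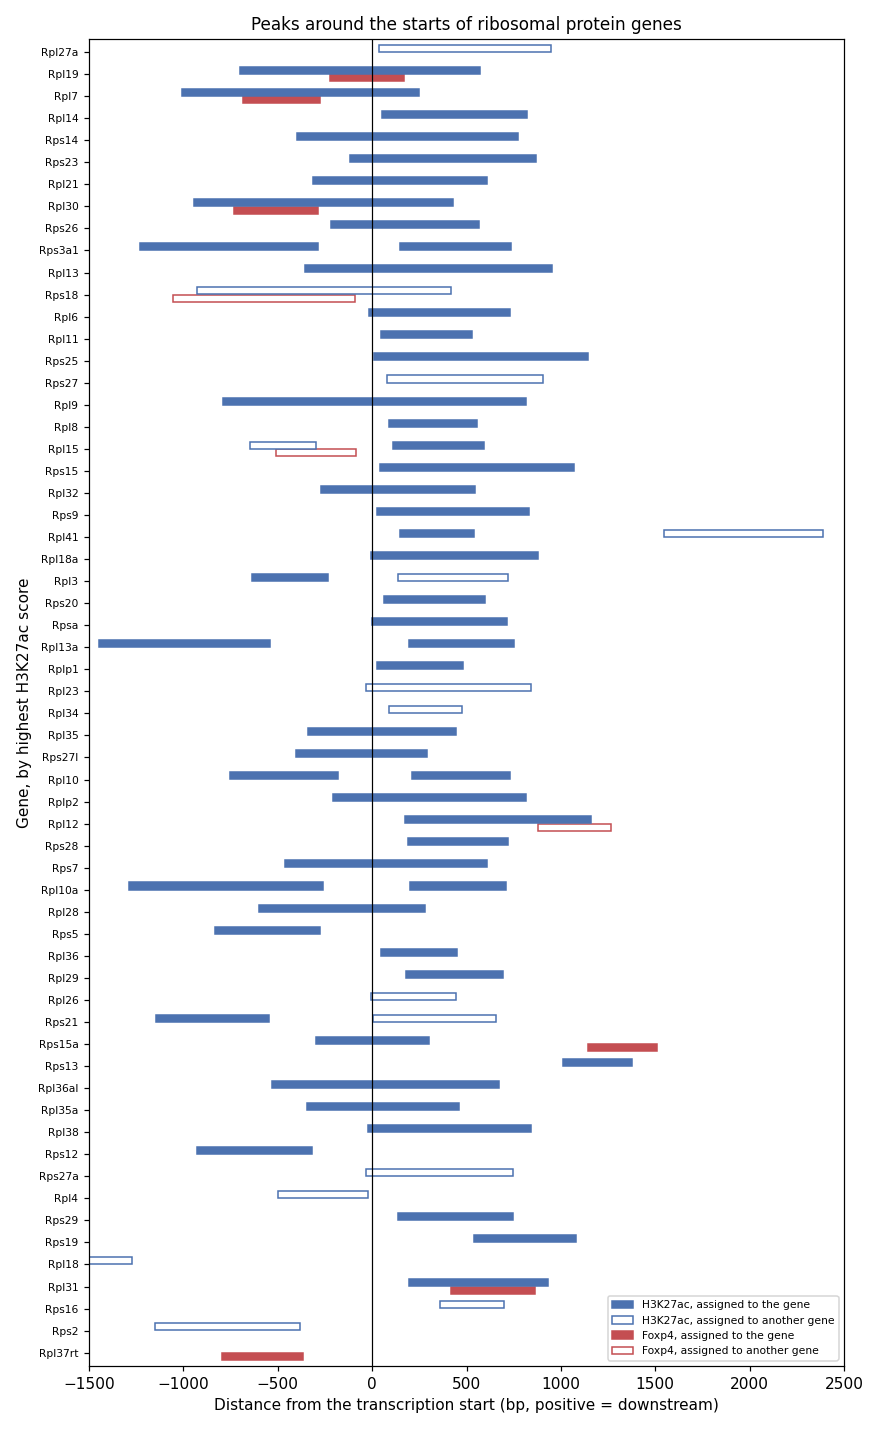
Peaks from 1500 bp upstream to 2500 bp downstream of the start at 60 ribosomal protein genes that have a peak there and a known start, ordered by their highest H3K27ac score; bars are peaks, blue for H3K27ac and red for Foxp4, filled where the deposited list assigns the peak to the gene and open where it names another gene. H3K27ac bars lie mostly to the right of the start, and Foxp4 bars appear at 9 genes.

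No H3K27ac peak lay in or within 1000 bp of 23 genes. They were Rpl5, Rpl7a, Rpl22, Rpl24, Rpl27, Rpl36a, Rpl37, Rpl37a, Rpl39, Rplp0, Rps3, Rps4x, Rps6, Rps10 and Rps24 of the standard set, and the paralogs Rpl3l, Rpl10l, Rpl22l1, Rpl32l, Rpl37rt, Rpl39l, Rps23rg1 and Rps27rt. The mark was thus not called at 15 genes of the standard set. With any assigned peak counted, 53 of the 88 genes had H3K27ac (60.2%), against 37.5% of all. H3K27ac peaks assigned to a gene but lying only outside its promoter window were found at 3 genes. At Rps13 the peak (score 38) was centred 1194 bp downstream of the start, inside the gene. At Rplp0 it lay 23979 bp upstream, and at Rps24 both peaks (scores 37 and 40) lay 257012 and 303171 bp downstream.

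Foxp4 promoter peaks were assigned to 6 of the 88 genes (6.82%, interval 2.54 to 14.3%), against 6.77% of all protein-coding genes, a share at the background. Of the 43 Foxp4 peaks 6 were promoter peaks, against 9.48% of the whole list. They included Rpl7, Rpl19, Rpl30, Rpl31 and Rpl37rt of the large subunit. Among the 50 genes with an H3K27ac promoter peak 5 also had a Foxp4 promoter peak (10.0%, interval 3.33 to 21.8%), against 14.2% of all genes with an H3K27ac promoter peak. That is 5 of 88 with both (5.68%), against 3.70% of all genes. In 4 of the 6 the Foxp4 peak overlapped an H3K27ac peak by at least 1 bp (66.7%), against 42.3% of all Foxp4 promoter peaks, a comparison that rests on 6 peaks. By the deposited distance the centre lay downstream of the start in 1 of them, against 52.1% of all. Over all member peaks 5 of 43 Foxp4 peaks overlapped H3K27ac (11.6%, against 8.21%) and 6 of 66 H3K27ac peaks overlapped Foxp4 (9.09%, against 7.91%), 5 of 55 at promoters (against 10.7%) and 1 of 11 elsewhere (against 6.29%). Their scores, 23 to 44 with a median of 30.5, lay around the median of 32 over all 1605 Foxp4 promoter peaks.

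At Rpl19 the Foxp4 peak (score 31, chr11:98026698-98027092) was centred 29 bp upstream of the start and lay whole inside the H3K27ac peak of score 100 (chr11:98026222-98027495), sharing all of its 395 bp. At Rpl7 a Foxp4 peak of score 33 (chr1:16104710-16105116), 480 bp upstream of the start, shared its 407 bp with the H3K27ac peak of score 98. At Rpl30 a Foxp4 peak of score 23 (chr15:34443564-34444009), 510 bp upstream, shared its 446 bp with the H3K27ac peak of score 87. In these 3 genes a modest Foxp4 peak thus lay within one of the 10 highest-scoring H3K27ac promoter peaks assigned to the group.

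The order was the reverse at Rpl31. Its Foxp4 peak (score 44, chr1:39368266-39368714) was the highest of the 6 and lay in an intron 639 bp downstream of the start. It was inside the H3K27ac peak of score 25, the lowest of those assigned to the group. The Foxp4 peak of the retrogene Rpl37rt (score 27, chr5:115108331-115108759) had no H3K27ac peak within 36969 bp. It was centred 583 bp upstream of a start by the deposited distance. Relative to the RefSeq promoter start (115110268) it lay downstream, wholly inside the gene and outside the 1000 bp window. Its score is one of 6 recurrent Foxp4 score values (21, 27, 34, 41, 49 and 57) that together hold 73.1% of that list; the other 5 promoter peaks stood at other values.

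By position, Foxp4 peaks of any name lay in or within 1000 bp of 14 genes (15.9%, interval 8.98 to 25.2%), against 28.3% of all protein-coding genes, whose greater length gives them more room. Of the 68 genes with a promoter sequence 5 had one that met the 1000 bp on either side of the start (7.35%, interval 2.43 to 16.3%, against 8.26%). The highest was at Rps18, with a score of 57 (chr17:33955756-33956719, named Vps52), above 98.4% of the Foxp4 list though at a recurrent value. It began 91 bp upstream of the Rps18 start, spanned the Vps52 start and overlapped the H3K27ac peak of score 82. At Rpl15 a Foxp4 peak of score 31 (chr14:18271068-18271493, named Nkiras1) lay between 87 and 512 bp upstream of the start and overlapped an H3K27ac peak of score 63 named after the same neighbour, an inhibitor of NF-kappa-B signalling. Inside Rpl12 a Foxp4 peak of score 24 named Snora65 shared 283 bp with the assigned H3K27ac peak of score 50. Inside Rpl23a one of score 21, named Snord4a, overlapped none. Beyond the 3' end of Rpl7l1 one of score 40 overlapped the H3K27ac peak of score 72.

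The sequences before the start are given for Rpl19, Rpl15 and Rps18, where a Foxp4 peak reaches the 250 bases before a start. They end at the base before the start, capitals mark CCGGAAG and GGGCGG or their complements, and the Rpl15 stretch stops at the start of Nkiras1, 150 bp away. For Rpl19 the first of 2 RefSeq starts (98026710) is used, whereas the distance of 29 bp given above is from the second (98026924).
Rpl19, chr11:98026460-98026709, plus strand: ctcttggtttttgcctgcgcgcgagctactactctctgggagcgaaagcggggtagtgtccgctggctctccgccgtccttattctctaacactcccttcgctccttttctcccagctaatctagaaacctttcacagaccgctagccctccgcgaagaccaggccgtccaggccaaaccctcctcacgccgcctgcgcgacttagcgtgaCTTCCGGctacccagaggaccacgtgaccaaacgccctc
Rpl15, chr14:18270987-18271135, minus strand: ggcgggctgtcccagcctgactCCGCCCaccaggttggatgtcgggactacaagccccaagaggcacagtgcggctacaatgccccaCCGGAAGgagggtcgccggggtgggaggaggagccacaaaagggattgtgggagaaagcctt
Rps18, chr17:33955666-33955915, minus strand: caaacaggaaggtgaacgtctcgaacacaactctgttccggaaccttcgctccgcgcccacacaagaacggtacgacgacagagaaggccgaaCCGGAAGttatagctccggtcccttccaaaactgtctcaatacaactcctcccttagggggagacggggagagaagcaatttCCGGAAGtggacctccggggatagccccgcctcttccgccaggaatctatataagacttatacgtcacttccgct
CCGGAAG began 39 bases before the Rpl19 start and 62 before the Rpl15 start on one strand or the other, and 157 and 75 bases before the Rps18 start. The Rpl15 stretch also held the GC box 127 bases before the start. Neither forkhead core was in these 3 stretches, which says only that these letters are not in this window. The Foxp4 peaks covered the last 12 bases before the first Rpl19 start, 68 bases of the Rpl15 stretch and 160 bases of the Rps18 stretch. The Rpl19 Foxp4 peak did not reach the CCGGAAG match and lay mostly downstream of the printed stretch.

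Away from promoters the Foxp4 list assigned 37 peaks to 25 of the gene names. They lay in intergenic sequence (27), introns (9) and an exon (1), at a median of 14.4 kb from the start, and 9 of them were more than 100 kb away. Over all Foxp4 peaks outside promoters the median distance was 33.6 kb. Of the 37 peaks 28 (75.7%) stood at recurrent scores, against 76.2% of all Foxp4 peaks outside promoters, and 1 overlapped an H3K27ac peak (2.70%, against 4.64%). With any assigned peak counted, 27 of the 88 genes had one (30.7%, interval 21.3 to 41.4%), against 36.6% of all protein-coding genes.

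That single overlap was also the strongest Foxp4 peak of the group. It was assigned to Rps24, scored 74 and lay 257154 bp downstream of the Rps24 start in intergenic sequence (chr14:24747671-24748144), where it shared 357 bp with an H3K27ac peak of score 37. Other Foxp4 peaks of Rps24, of scores 49 and 21, lay 289470 and 41719 bp downstream. Rps24 itself, mutated in some patients with Diamond-Blackfan anaemia, had no peak of either list in the gene or within 1000 bp of it. The name says only that its start was the nearest one.

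Nearer to their genes, Rpl11 had a pair of Foxp4 peaks of score 34 at 2700 and 3621 bp upstream, Rpl13 one of score 32 at 1758 bp upstream, and Rpl37 one of score 26 at 2962 bp upstream. Rps15a had a Foxp4 peak of score 23 in exon 3, 1325 bp downstream of a start that an H3K27ac peak of score 41 covered. Rps10 had one of score 34 in intron 4 and no H3K27ac peak. Rps3a1 had 2 upstream, at 6321 and 9018 bp with scores of 27 and 49, and Rps6 had 2 downstream, at 5391 and 14421 bp with scores of 49 and 27. The Rpl37a peak of score 57, 6268 bp downstream of the start, was the second highest of those assigned to the group. It stood at a recurrent value, as did the peaks of Rpl11, Rps10, Rps3a1 and Rps6 given here. Further distal peaks belonged to Rpl7, Rpl10l, Rpl15, Rpl22l1, Rpl29, Rpl30, Rpl31, Rpl36, Rpl39l, Rplp1, Rps13, Rps14, Rps15a, Rps20, Rps27a and Rps29, with scores of 21 to 49, and none of them overlapped H3K27ac.

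Gene groups with related roles were counted in the same way. H3K27ac promoter peaks were assigned to 31 of 78 mitochondrial ribosomal protein genes (39.7%, interval 28.8 to 51.5%), 32 of 51 genes with names starting with Psm, mostly proteasome subunits (62.7%), 26 of 54 ribosome biogenesis genes (48.1%), 23 of 33 translation initiation and termination factor genes (69.7%), 13 of 16 further genes with TOP mRNAs (81.2%, interval 54.4 to 96.0%) and 17 of 22 regulators of TOP mRNA translation and ribosomal protein transcription (77.3%). The interval for the cytosolic ribosomal protein genes overlapped those of all 6 groups. Foxp4 promoter peaks were assigned to 7 of 78, 8 of 51, 5 of 54, 3 of 33, 1 of 16 and 4 of 22 genes in the same order. By position in the gene or within 1000 bp, H3K27ac reached 55.1% of the mitochondrial genes, 72.5% of the Psm genes, 66.7% of the ribosome biogenesis genes, 78.8% of the translation factor genes, 87.5% of the further genes with TOP mRNAs and 86.4% of the regulators. The cytosolic ribosomal protein genes, at 73.9%, stood between these groups. These groups were compared as counts and not tested.

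**Figure D4:**
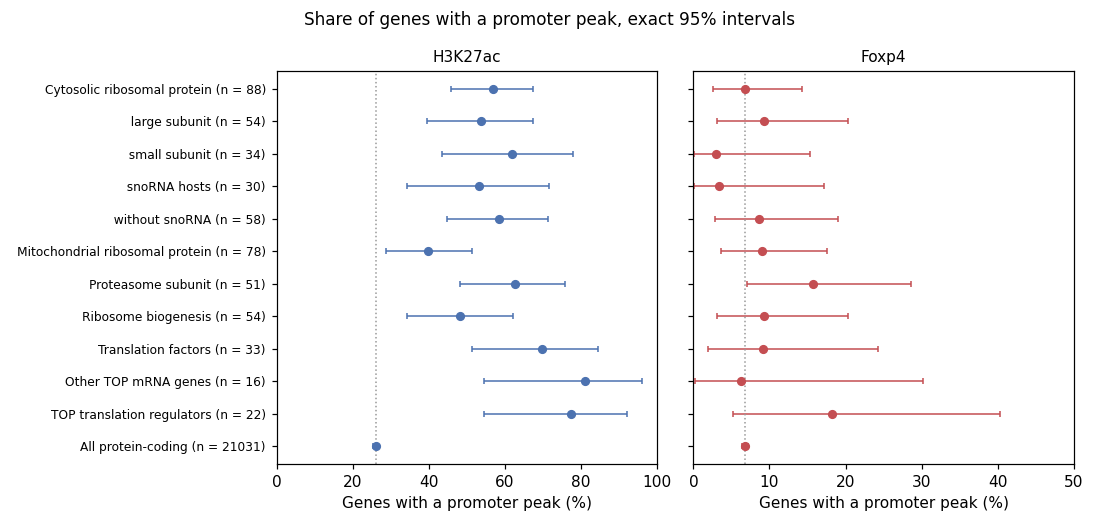
Share of genes with an assigned promoter peak (%) in the H3K27ac list (left) and the Foxp4 list (right) for the cytosolic ribosomal protein genes, their subsets and related groups, with exact 95% intervals and the number of genes; the dotted line is the share of all protein-coding genes (26.0% and 6.77%). The H3K27ac point of the ribosomal protein genes stands at 56.8%, and the Foxp4 point at 6.82%.

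In these groups Eif4e2 had the highest H3K27ac promoter score among the genes listed as translation factors, 202, followed by the termination factor Etf1 at 146. Among the genes with TOP mRNAs Eef2, the elongation factor that drives translocation, had 161 and Naca, of the nascent chain complex, 139. Pno1 and Ubtf, the latter an activator of RNA polymerase I, had 99 each, and of the regulators Gabpb1, a partner of the ETS factor GABPA, had 126 and Larp1, which binds the TOP tract, 123. Mrpl27 (168) and Mrpl53 (100) led the mitochondrial genes, and Psmd11 (96) and Psmc3ip (83) the Psm genes. Several of these scores were above the highest of any promoter peak assigned to a ribosomal protein gene, 120. With peaks of any name counted, the highest at such a gene was 146, at Rpl17. Foxp4 promoter peaks lay at Wdr75 (29), Nop58 (27), Eif6 (29), Rrn3 (24) and Nolc1 (35) of ribosome biogenesis, at Eif4h (33), Eif3f (49) and Eif3g (34), at Pabpc1 (35), and at Mdm2 (28), Rptor (27), Myc (22) and Mxi1 (67). In the mitochondrial group they lay at Mrpl18 (28), Mrpl23 (20), Mrpl42 (57), Mrpl46 (28), Mrpl51 (48), Mrps30 (41) and Mrps36 (28). In the Psm group they lay at Psma6 (40), Psmb3 (21), Psmb7 (34), Psmd1 (35), Psmd3 (27), Psmd5 (33), Psmd6 (27) and Psme4 (47).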

How the data were processed

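Peak lists from 1 Foxp4 and 1 H3K27ac ChIP-seq library were used. The submitters' processing notes name Bowtie2, Picard, SAMtools, MACS2, deepTools 3.3.0 and mm10, with no settings. Per the file headers, HOMER annotatePeaks.pl was run on narrowPeak files and gave each peak its nearest start and the signed distance of its centre. The deposited score is a whole number, 20 or higher. How it is defined, at what threshold peaks were called and whether the input entered are not stated in the labels or headers. A score was set only against scores of its own list.

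Peaks on the autosomes, X and Y were joined by Entrez identifier to 21031 RefSeq protein-coding genes (GRCm38.p6) with a curated transcript. Overlap meant at least 1 shared bp, and this rule was tested on simulated data. Starts came from the RefSeq promoter table or the deposited distances, and none could be placed for 3 genes. No test was run. Named genes were those with a Foxp4 peak or peaks in both lists, the 10 highest and 5 lowest H3K27ac promoter scores, the 5 widest peaks, genes with H3K27ac only outside the promoter window, genes with no peak, paralogs, genes whose start window holds a peak of another name, and in related lists the 2 highest H3K27ac scores and every Foxp4 promoter peak. Others named were chosen after their values were seen, as were the motifs, the start composition and the sequences shown. Some genes that these rules name are not reported here, though they are in the counts. Members and lists were chosen with earlier results of these data known. Alternatives varied the window, score, overlap, gene set and assignment. Python 3.11.15 was used, with pandas 2.3.3, numpy 2.4.6, matplotlib 3.10.9 and, for intervals, scipy 1.17.1.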

Additional observations from a re-analysis of the deposited data

How the results depend on the processing

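The share of ribosomal protein genes with an H3K27ac promoter peak (56.8%) stayed within its interval under 7 other settings, from 47.7% (window of 500 bp, or the higher-scoring 50% of the list) to 61.8% (small subunit). Over all protein-coding genes the same 2 settings gave 19.3% and 18.5%. It moved to 73.9% when peaks of any name in the gene or within 1000 bp were counted, an alternative chosen after seeing the data. The Foxp4 share (6.82%) moved to 30.7% with any assigned peak and to 15.9% by position, also chosen after seeing the data, and lay between 3.41% and 11.4% otherwise, where all genes gave 4.57% and 10.4%. Overlap shares and the share by start window stayed within their intervals. Without the recurrent scores 5 of 88 genes had a Foxp4 promoter peak (5.68%, against 3.87% of all genes). No paired analysis was possible because each group has 1 library. Unknown depth limits every absence: a shallower library yields fewer peaks.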

Other observations

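Among the names with "-ps" that the rule left out, Rps15a-ps6 had 2 Foxp4 peaks (scores 34 and 20) and 1 H3K27ac peak (score 23), all in an intron of another gene, and Rps19-ps3 had 2 Foxp4 peaks (scores 33 and 28). The transcribed pseudogene Rps4l had an H3K27ac peak of score 37 centred 770 bp upstream of its start (chr6:148353701-148354071) and one of score 41 at 17491 bp upstream.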
